A study of Homo sapiens with 4 samples.

Results

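DNA replication and S phase genes were followed in HCT116 cells given the compound 7A. The set holds 52 genes, listed by function as origin licensing factors, helicase, clamp, polymerase, ribonucleotide reductase and E2F or cyclin E genes, and all 52 were found, through their Ensembl identifiers, among the 20263 genes of the deposited count table. HCT116 is an established human colorectal carcinoma line. The series title calls 7A a derivative of neratinib, an irreversible inhibitor of the EGFR and HER2 receptor kinases, and the question was how 7A acts on colon cancer cells. There were 2 libraries from HCT116 cells kept for 24 h with 7A and 2 from HCT116 cells labelled DMSO and kept as long without it. Both groups were grown in DMEM with 10% fetal bovine serum, and no source used here gives the dose of 7A. No label says that the libraries of a group came from separate cultures, so p-values here reflect the spread among these libraries alone, which may be technical.

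Replication starts from origins that are licensed before S phase, when the origin recognition complex, CDC6 and CDT1 load the ring-shaped MCM2-7 helicase on DNA. The kinase CDC7 with its activator DBF4 then helps to turn each ring into a running helicase by adding CDC45 and the GINS complex. Primase and polymerase alpha start each new strand, the RFC loader places the sliding clamp PCNA, and polymerases delta and epsilon extend the strands. Many of these genes are transcribed at the entry into S phase under E2F factors, which are released when cyclin-dependent kinases phosphorylate RB. They are expressed in cycling cells and little in resting ones, and colon carcinoma lines such as HCT116 divide fast.

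Levels below are TMM-scaled CPM, the counts of a gene relative to the scaled total of its library. Changes are given as log2 fold change, 7A over DMSO, ± its standard error (SE, n = 2 libraries each). A gene was called higher or lower when its adjusted p from edgeR's quasi-likelihood test, with Benjamini-Hochberg adjustment over all 14026 tested genes, was under 0.05. Library totals were 49924044 and 61605005 counts with 7A, against 31120459 and 29769568 with DMSO. The lowest count of any member in any library was 172, in CCNE2. All 5 epithelial markers examined (EPCAM, CDH1, KRT8, KRT18 and KRT19) were at 58.8 CPM or more in every library. Of 6 markers of other cell types, CD3E, COL1A2 and HBB had no count in any library and PTPRC and PECAM1 at most 0.0880 CPM, while COL1A1 was at 33.7 and 38.6 CPM with 7A and 57.6 and 54.7 CPM with DMSO (-0.64, edgeR adjusted p 0.0103). Of the epithelial markers 4 were called higher with 7A, and the part of these marker changes in the results below was not tested. The exact permutation p of 2 against 2 libraries is at least 0.333, and edgeR reaches smaller values by sharing the spread across genes.

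The promoters that follow hold matches to E2F sites, which were found in fewer than 50% of the member promoters. They belong to the 3 called members with the largest rises among those of at least 10 CPM that held a match, E2F1, RFC3 and UHRF1, and to MCM6, chosen after its values were seen because it did not rise with its partners. Sequences are from RefSeq on GRCh38.p14, 250 bases before to 50 after the gene start, and capitals mark matches to TTTCCCGC or TTTGGCGC on either strand.
E2F1 (chr20:33686336-33686635, minus strand): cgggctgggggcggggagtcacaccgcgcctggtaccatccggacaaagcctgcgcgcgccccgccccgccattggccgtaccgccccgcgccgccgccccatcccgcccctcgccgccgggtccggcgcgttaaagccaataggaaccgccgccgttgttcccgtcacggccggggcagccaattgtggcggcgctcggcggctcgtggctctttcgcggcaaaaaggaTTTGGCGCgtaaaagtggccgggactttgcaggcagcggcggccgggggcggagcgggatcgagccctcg
RFC3 (chr13:33817899-33818198, plus strand): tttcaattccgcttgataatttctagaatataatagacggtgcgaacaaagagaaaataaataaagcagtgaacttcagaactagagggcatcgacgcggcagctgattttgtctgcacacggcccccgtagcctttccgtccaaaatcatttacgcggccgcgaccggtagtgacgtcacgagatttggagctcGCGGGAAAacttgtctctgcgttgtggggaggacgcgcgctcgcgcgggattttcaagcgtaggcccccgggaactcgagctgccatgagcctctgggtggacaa
UHRF1 (chr19:4909251-4909550, plus strand): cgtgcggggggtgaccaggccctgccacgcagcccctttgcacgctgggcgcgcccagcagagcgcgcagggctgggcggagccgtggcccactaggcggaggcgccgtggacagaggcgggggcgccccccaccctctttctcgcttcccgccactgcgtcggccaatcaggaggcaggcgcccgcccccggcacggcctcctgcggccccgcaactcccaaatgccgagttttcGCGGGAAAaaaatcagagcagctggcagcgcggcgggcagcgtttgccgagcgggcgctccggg
MCM6 (chr2:135876394-135876693, minus strand): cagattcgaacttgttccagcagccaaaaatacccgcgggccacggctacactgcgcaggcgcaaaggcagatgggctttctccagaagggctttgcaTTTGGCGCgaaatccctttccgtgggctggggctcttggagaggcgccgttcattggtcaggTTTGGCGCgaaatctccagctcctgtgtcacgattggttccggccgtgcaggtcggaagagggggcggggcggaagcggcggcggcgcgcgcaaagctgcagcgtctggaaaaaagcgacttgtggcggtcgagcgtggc
The matches began 20 bases before the start in E2F1, 55 in RFC3 and 14 in UHRF1, and MCM6 held a pair of them, 152 and 90 bases before its start. RefSeq starts need not coincide with the ends of the GENCODE genes given below.

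A promoter was matched for 45 of the 52 members, the others being MCM4, MCM5, GINS4, DSCC1, POLD3, RPA2 and CCNE2. An E2F match stood in 20 of these 45 promoters (44.4%), against 403 of 11107 promoters of tested genes (3.63%) and 797 of all 35116 promoters in the table (2.27%). Among the further replication genes described below a match stood in 7 of 57 promoters (12.3%). Both strands were searched, and a promoter counted once whatever its number of matches or their overlap. Of the 20 members with a match 12 were called higher, with a median log2 fold change of 0.59. Of the 25 without one 12 were called higher, with a median of 0.41. Over tested genes 121 of 403 with a match were called higher, with a median of 0.10. Without a match it was 2571 of 10704, with a median of -0.03. Whether a match goes with the change was not tested. The box CCAAT, searched in the same way, stood in 28 of the 45 member promoters (62.2%), in 36.4% of promoters of tested genes and in 34.6% of all promoters. The letters TTTGAA, the core of the cell-cycle element known as CHR, stood in 3 of 45 (6.67%), in 9.70% of promoters of tested genes and in 15.2% of all promoters.

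With 7A the largest rises among the members were in E2F1, MCM5, MCM2, RFC3 and UHRF1. Of the 52 members, 28 were called higher (53.8%), 2 lower (3.85%) and 22 neither (edgeR's quasi-likelihood test). Over all tested genes 48.4% were called, 23.9% higher and 24.6% lower. The median log2 fold change was 0.50 over the members and -0.03 over all tested genes. All 52 members passed the filter on low counts. In bulk RNA, a larger share of cells in S phase and more of these RNAs per cell cannot be told apart. CPM is relative, so it also does not show whether the amount of other RNAs changed. Both 7A libraries lay above both DMSO libraries for 33 members, and below them for 5, while the groups overlapped for 14. Over all tested genes the same held for 38.2% above and 40.2% below.

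The number of members called higher was between 19 and 23 when each library was left out in turn, and 18 of the 28 were called higher in every one of these fits. The count depended on the scaling. Under scaling by library totals alone it was 18 members higher and 4 lower, and 1951 tested genes higher and 4934 lower. That scaling moved the median of all tested genes to -0.29 and that of the members to 0.23. The members no longer called higher under it were CDC6, GINS1, PCNA, RFC5, DSCC1, PRIM1, POLE, POLD1, RPA2 and CHAF1B, and POLA1 and POLD3 were called lower. Members that stayed called had smaller changes as well, such as RRM2 (0.37) and TIMELESS (0.45). The median of MCM2 to MCM7 was 0.93 with library totals and 1.19 with TMM. Set against the median of all tested genes the members' median stood 0.53 higher with library totals and 0.52 higher with TMM. A change of scaling shifts all genes by nearly the same amount. This gap was therefore bound to stay and is no check on the scaling. Summed over the 52 genes, the members were at 3530 and 3482 TMM-scaled CPM in the 7A libraries, against 2142 and 2193 in the DMSO libraries. The groups did not overlap in this sum.

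**Figure D1:**
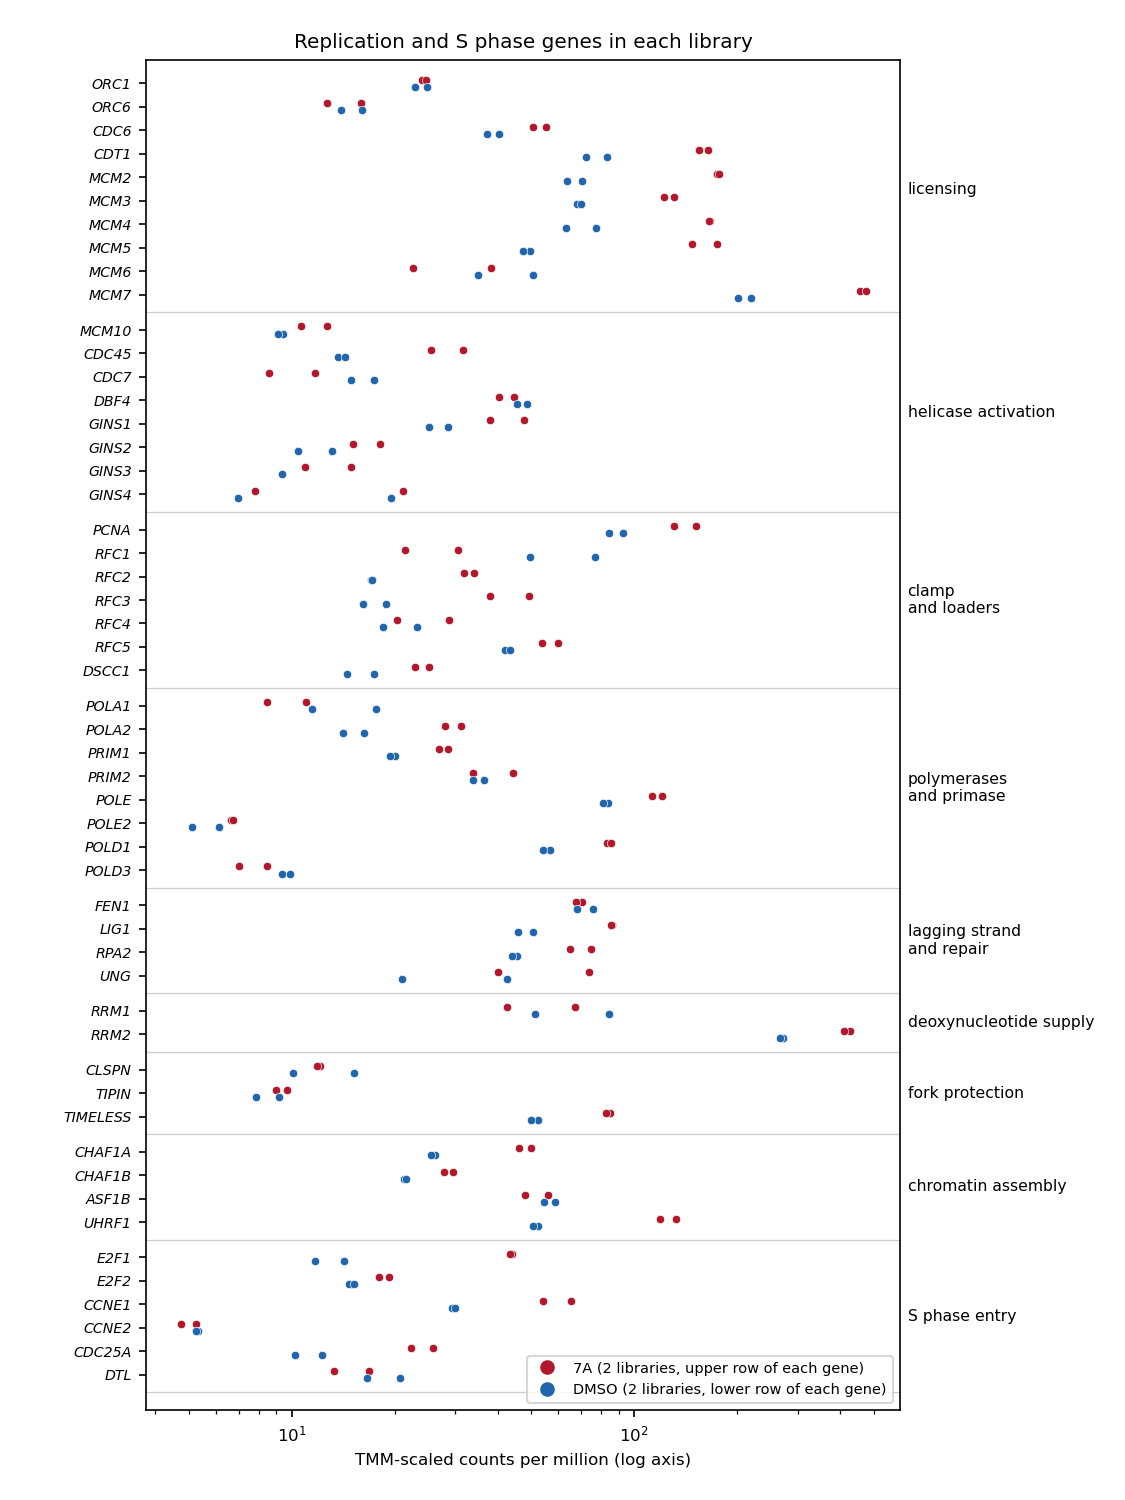
TMM-scaled CPM (log axis) of the 52 genes in each of the 4 libraries, grouped by role, with 7A in red on the upper row of each gene and DMSO in blue on the lower row. MCM2, MCM5, E2F1 and UHRF1 show both 7A points well to the right of both DMSO points, whereas MCM6, GINS4, RRM1 and UNG show overlapping groups.

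Of the 10 licensing genes 7 were called higher (70%) and none lower. Shares by role, here and below, stand beside 23.9% called higher and 24.6% lower over all tested genes. MCM5 (ENSG00000100297, chromosome 22, 35400063 to 35425430), a subunit of the MCM2-7 ring, was at 147 and 174 CPM with 7A, against 49.5 and 47.3 CPM with DMSO. Its change was 1.73 ± 0.14 (edgeR adjusted p 0.000604), a 3.32-fold rise. MCM2 was at 174 and 177 CPM with 7A and 63.8 and 70.3 CPM with DMSO (1.39 ± 0.12, edgeR adjusted p 0.000692). MCM4 was at 166 and 165 CPM with 7A and 63.1 and 77.1 CPM with DMSO (1.24 ± 0.14, edgeR adjusted p 0.00103). In each of these 3 subunits both 7A libraries lay far above both controls. MCM7 rose by 1.15 ± 0.12 and MCM3 by 0.87 ± 0.12. MCM7 was the best expressed ring subunit per length, at 104 and 108 CPM per kb of exon with 7A and 49.99 and 45.7 with DMSO.

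MCM6 did not follow the other ring subunits. It was at 38.2 and 22.6 CPM with 7A and at 34.9 and 50.7 CPM with DMSO, so that its groups overlapped (-0.50 ± 0.32, edgeR adjusted p 0.247). Its log2 fold change ran from -0.90 to -0.17 when each library was left out in turn, and it was called in none of these fits. Per kb of exon MCM5 was 2.16 and 4.33 times MCM6 in the 7A libraries, against 0.795 and 0.523 times in the DMSO libraries. The size of these ratios depends on the merged exon lengths, 7338 bp in MCM5 and 4118 bp in MCM6. After the GC and length correction described below MCM5 had 1.67 and MCM6 -0.37 (edgeR adjusted p 0.295 for MCM6). Summed per kb of exon, the 6 ring subunits were at 228 and 231 CPM per kb with 7A, against 106 and 109 with DMSO. The ratio of the highest to the lowest subunit, MCM7 to MCM6 with 7A and MCM7 to MCM5 with DMSO, was 11.2 and 19.7 with 7A and 7.41 and 7.10 with DMSO.

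The factors that load the ring were split. CDT1, which brings MCM2-7 to origins, rose by 1.04 ± 0.13 (edgeR adjusted p 0.00137), and CDC6, the loading ATPase, by 0.45 ± 0.14 (edgeR adjusted p 0.0323). The CDC6 call was not kept without 7A replicate 1 (edgeR adjusted p 0.0794), 7A replicate 2 (0.0552), DMSO replicate 1 (0.181) or DMSO replicate 2 (0.111). Per kb of exon CDT1 was 3.38 and 4.81 times its inhibitor GMNN with 7A, against 2.40 and 1.87 times with DMSO. The origin recognition subunits ORC1 (0.03 ± 0.15) and ORC6 (-0.07 ± 0.19) were not called, and their groups overlapped.

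**Figure D2:**
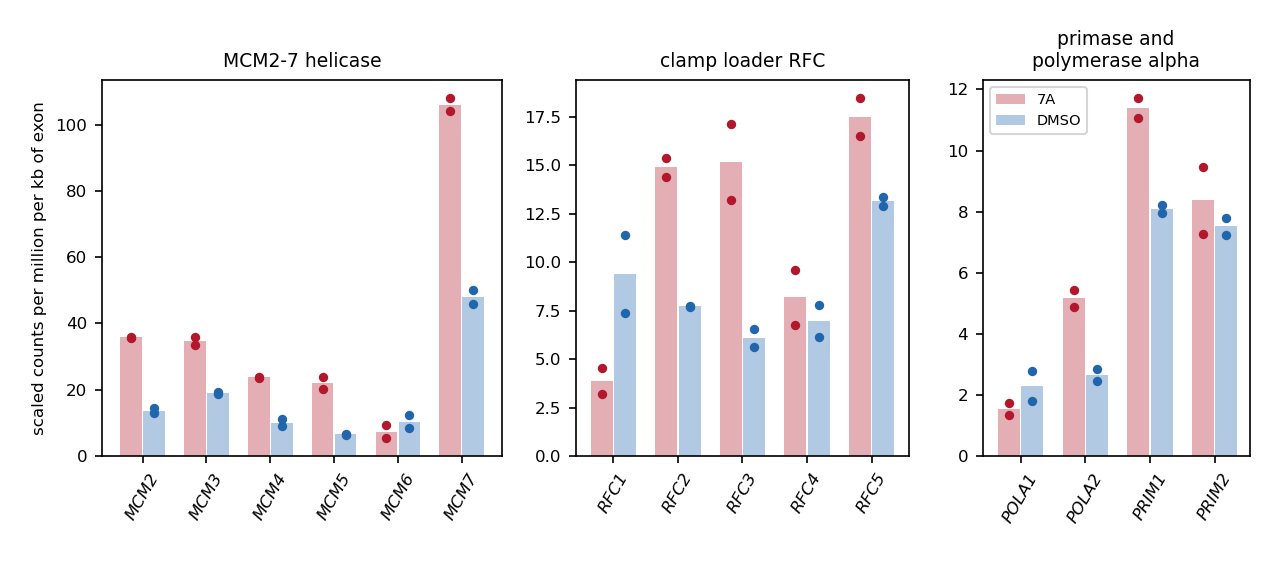
TMM-scaled CPM per kb of merged exon for the subunits of the MCM2-7 ring, the RFC clamp loader and the primase with polymerase alpha, with bars at the mean of 2 libraries and points for each library (7A left in red, DMSO right in blue). Both 7A points lie above both DMSO points except in MCM6, RFC4 and PRIM2, where the groups overlap, and in RFC1 and POLA1, where both 7A points are lower.

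Of the 8 genes that turn the ring into a running helicase 2 were called higher and 1 lower. The share called higher, 25%, was near the 23.9% of all tested genes, and 12.5% were called lower, against 24.6%. CDC45, which rides with MCM2-7 at the fork, was at 25.4 and 31.7 CPM with 7A and 13.6 and 14.3 CPM with DMSO (1.03 ± 0.17, edgeR adjusted p 0.00313). GINS1 was at 47.8 and 37.9 CPM with 7A and 28.5 and 25.2 CPM with DMSO (0.67 ± 0.17, edgeR adjusted p 0.0155). Both genes had separate groups, but the GINS1 call was not kept without 7A replicate 1 (edgeR adjusted p 0.0574) or DMSO replicate 2 (0.0979). Of the other GINS subunits, GINS2 (0.50 ± 0.19) and GINS3 (0.46 ± 0.20) had 7A libraries above the controls without being called. GINS3 was called higher without 7A replicate 1 (0.69, edgeR adjusted p 0.0430). GINS4 was the least settled member, at 21.1 and 7.84 CPM with 7A and 6.98 and 19.5 CPM with DMSO (0.13 ± 0.83). Its libraries differed more within each group than between the groups. MCM10, a scaffold for helicase activation, had 0.33 ± 0.18 (edgeR adjusted p 0.166).

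The activating kinase went the other way. CDC7 was at 11.7 and 8.58 CPM with 7A, against 14.9 and 17.4 CPM with DMSO, a fall of -0.67 ± 0.21 (edgeR adjusted p 0.0327). That call was not kept without 7A replicate 2 (edgeR adjusted p 0.139), DMSO replicate 1 (0.0592) or DMSO replicate 2 (0.167), and when all libraries were thinned to 29769568 counts (0.0749). Its activator DBF4 had -0.15 ± 0.14 and was not called, with both 7A libraries just below both controls.

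Of the 7 clamp and clamp loader genes 5 were called higher (71.4%) and 1 lower (14.3%). RFC3 (chromosome 13, 33818049 to 33966558) was at 49.2 and 37.9 CPM with 7A and 18.9 and 16.2 CPM with DMSO (1.31 ± 0.18, edgeR adjusted p 0.00179). RFC2 was at 34.1 and 31.9 CPM with 7A and 17.1 and 17.1 CPM with DMSO (0.95 ± 0.15, edgeR adjusted p 0.00244). PCNA, the clamp itself, was at 151 and 130 CPM with 7A and 84.2 and 92.5 CPM with DMSO (0.67 ± 0.14, edgeR adjusted p 0.00656). The groups were apart in all 3 genes. After the GC and length correction described below RFC2 had 0.63 (edgeR adjusted p 0.0141). The PCNA call was not kept without DMSO replicate 1 (edgeR adjusted p 0.0502). RFC5 rose by 0.41 ± 0.14, a call not kept without 7A replicate 1 (edgeR adjusted p 0.0964), 7A replicate 2 (0.0515), DMSO replicate 1 (0.196) or DMSO replicate 2 (0.158). DSCC1, part of the loader used for sister chromatid cohesion, rose by 0.59 ± 0.17 and did not keep its call without 7A replicate 1 (edgeR adjusted p 0.0754), 7A replicate 2 (0.0534) or DMSO replicate 2 (0.162). RFC4 had 0.23 ± 0.22 and overlapping groups.

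RFC1 (ENSG00000035928, chromosome 4, 39287456 to 39366375), the large subunit that completes the clamp loader, had the largest fall among the members. It was at 30.5 and 21.4 CPM with 7A, against 49.5 and 76.8 CPM with DMSO. The change was -1.28 ± 0.28 (edgeR adjusted p 0.0137), and without 7A replicate 2 it was -1.06 (edgeR adjusted p 0.102). Per kb of exon RFC1 was 0.295 and 0.221 times RFC2 with 7A, against 0.954 and 1.47 times with DMSO. Its groups did not overlap, and the DMSO libraries stood farther apart than those of the small subunits. Summed per kb of exon, the small subunits RFC2 to RFC5 were at 60.6 and 50.9 CPM per kb with 7A, against 33.4 and 34.5 with DMSO.

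Of the 8 polymerase and primase genes 4 were called higher (50%) and none lower. POLA2, the regulatory subunit of polymerase alpha, was at 28.0 and 31.2 CPM with 7A and 16.3 and 14.1 CPM with DMSO (0.96 ± 0.16, edgeR adjusted p 0.00327). POLD1, the catalytic subunit of polymerase delta, was at 83.4 and 85.3 CPM with 7A and 56.9 and 54.1 CPM with DMSO (0.60 ± 0.13, edgeR adjusted p 0.00785). POLE, the catalytic subunit of polymerase epsilon, was at 113 and 121 CPM with 7A and 83.9 and 81.2 CPM with DMSO (0.50 ± 0.12, edgeR adjusted p 0.0138). The groups were apart in all 3. The call of POLD1 was not kept without DMSO replicate 2 (edgeR adjusted p 0.0704), and that of POLE without DMSO replicate 1 (0.0697) or DMSO replicate 2 (0.0975). After the GC and length correction described below POLD1 had 0.35 (edgeR adjusted p 0.0318) and POLE 0.84 (0.00223). POLD1 was 2.48 and 2.38 times POLE per kb of exon with 7A and 2.28 and 2.24 times with DMSO. PRIM1, the catalytic primase subunit, rose by 0.50 ± 0.15, a call not kept without 7A replicate 1 (edgeR adjusted p 0.0645), 7A replicate 2 (0.0535), DMSO replicate 1 (0.104) or DMSO replicate 2 (0.149).

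POLA1, the catalytic subunit of polymerase alpha, was not called. It was at 11.0 and 8.45 CPM with 7A, against 11.4 and 17.7 CPM with DMSO (-0.58 ± 0.26, edgeR adjusted p 0.103), and it was called lower without DMSO replicate 1 (-0.85, edgeR adjusted p 0.0393). Both of its 7A libraries lay below the controls while those of its partner POLA2 lay above them. The accessory subunits PRIM2 (0.16 ± 0.17), POLE2 (0.25 ± 0.20) and POLD3 (-0.31 ± 0.19) were not called.

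**Figure D3:**
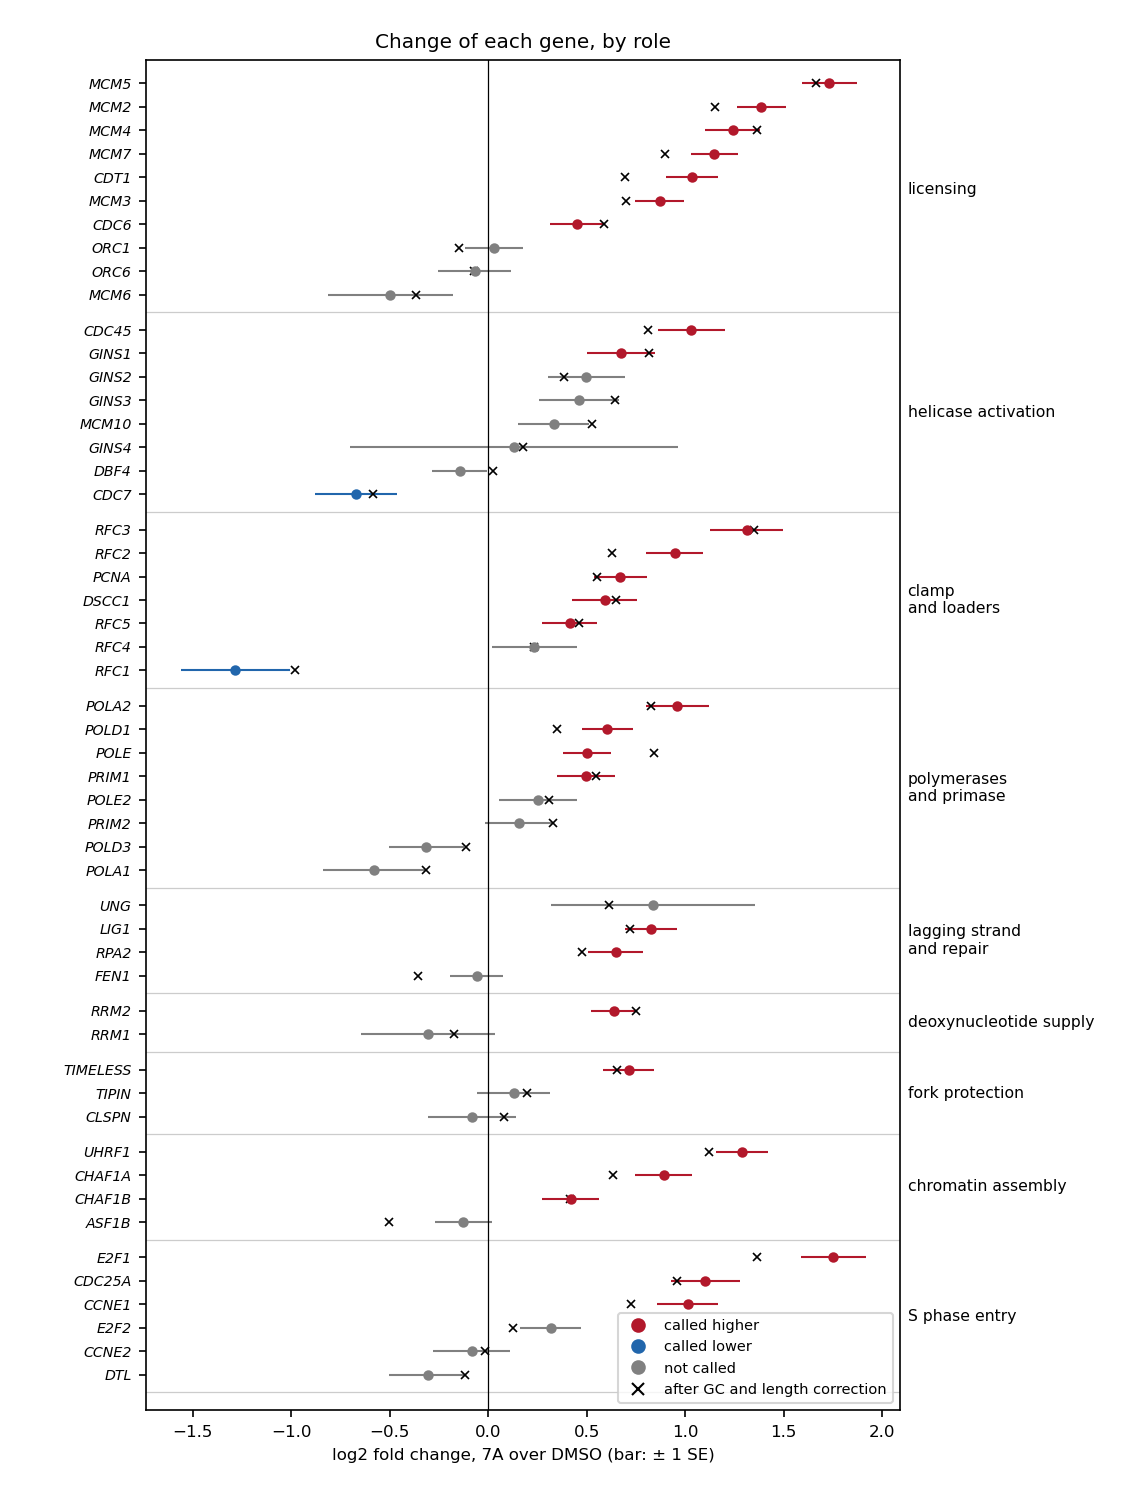
Log2 fold change of 7A over DMSO for each gene by role, with bars of ± 1 SE (n = 2 libraries each) and colours for the edgeR call (red higher, blue lower, grey not called), and crosses for the value after correction for GC content and transcript length. The 28 red points lie between 0.41 and 1.75, RFC1 and CDC7 are the blue points at -1.28 and -0.67, and the crosses of all red points stay above 0.

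Of the 4 genes that join and repair the new strands 2 were called higher (50%) and none lower. LIG1, the ligase for Okazaki fragments, was at 85.9 and 85.3 CPM with 7A and 50.7 and 45.8 CPM with DMSO (0.83 ± 0.13, edgeR adjusted p 0.00286). RPA2, a subunit of the protein that coats single-stranded DNA, was at 65.1 and 74.8 CPM with 7A and 45.4 and 43.9 CPM with DMSO (0.65 ± 0.14, edgeR adjusted p 0.00846). Both had separate groups, and the RPA2 call was not kept without DMSO replicate 2 (edgeR adjusted p 0.0659). FEN1, the flap nuclease of lagging-strand synthesis, had -0.06 ± 0.13 and overlapping groups. UNG, which removes uracil from DNA, was at 40.0 and 73.7 CPM with 7A and 42.6 and 21.0 CPM with DMSO (0.84 ± 0.52, edgeR adjusted p 0.264). Its groups overlapped, and without DMSO replicate 1 it was called higher (1.44, edgeR adjusted p 0.0488).

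The 2 subunits of ribonucleotide reductase, which makes deoxynucleotides, differed. RRM2, the subunit that is limiting in S phase, was at 427 and 410 CPM with 7A and 272 and 266 CPM with DMSO (0.64 ± 0.11, edgeR adjusted p 0.00421). RRM1 was at 67.3 and 42.4 CPM with 7A and 51.4 and 84.1 CPM with DMSO (-0.31 ± 0.34, edgeR adjusted p 0.497). RRM2 had tight, separate groups and RRM1 had overlapping ones. Per kb of exon RRM2 was 4.98 and 7.58 times RRM1 with 7A, against 4.16 and 2.48 times with DMSO. In MCM6, GINS4, RFC1 and RRM1 alike, 7A replicate 1 exceeded 7A replicate 2 and DMSO replicate 2 exceeded DMSO replicate 1. This order was not particular to those genes, since members called higher such as MCM3, MCM4, PCNA and RFC5 had it too. Only the order was compared, and some of these libraries stood closer. MCM4 was at 166 and 165 CPM with 7A, and MCM3 at 68.1 and 70.1 CPM with DMSO.

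Of the 3 fork protection genes TIMELESS was called higher (33.3%), and its partner TIPIN and the checkpoint adaptor CLSPN were not called. TIMELESS was at 85.1 and 82.7 CPM with 7A and 52.5 and 49.9 CPM with DMSO (0.71 ± 0.13, edgeR adjusted p 0.00437). CLSPN was at 12.1 and 11.8 CPM with 7A and 10.1 and 15.2 CPM with DMSO (-0.08 ± 0.22), and TIPIN had 0.13 ± 0.19. Both of these had overlapping groups.

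Of the 4 genes that package new DNA 3 were called higher (75%). UHRF1 (chromosome 19, 4903080 to 4962154), which brings the maintenance methyltransferase to newly replicated DNA, was at 119 and 133 CPM with 7A, against 52.3 and 50.7 CPM with DMSO (1.29 ± 0.13, edgeR adjusted p 0.000853). CHAF1A, the large subunit of the histone chaperone CAF-1, was at 45.9 and 49.8 CPM with 7A and 26.2 and 25.4 CPM with DMSO (0.89 ± 0.14, edgeR adjusted p 0.00284). CHAF1B, its partner, was at 27.8 and 29.5 CPM with 7A and 21.2 and 21.6 CPM with DMSO (0.42 ± 0.14, edgeR adjusted p 0.0464). These 3 genes had separate groups, with the smallest gap in CHAF1B. Its call was not kept without 7A replicate 1 (edgeR adjusted p 0.0619), 7A replicate 2 (0.118), DMSO replicate 1 (0.178) or DMSO replicate 2 (0.182). ASF1B, which hands histones to CAF-1, had -0.13 ± 0.14 and overlapping groups.

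Of the 6 genes of S phase entry 3 were called higher (50%). E2F1 (ENSG00000101412, chromosome 20, 33675683 to 33686404), the activator of many of the genes above, was at 44.0 and 43.5 CPM with 7A, against 14.2 and 11.7 CPM with DMSO. Its change of 1.75 ± 0.16 (edgeR adjusted p 0.00071), a 3.37-fold rise, was the largest of the 52. CDC25A, the phosphatase that activates cyclin-dependent kinases, was at 25.9 and 22.3 CPM with 7A and 12.3 and 10.2 CPM with DMSO (1.10 ± 0.18, edgeR adjusted p 0.00274). CCNE1, which encodes cyclin E1, was at 54.3 and 65.6 CPM with 7A and 29.4 and 30.0 CPM with DMSO (1.01 ± 0.15, edgeR adjusted p 0.0023). In all 3 the groups were far apart, and each was called without any 1 of the libraries. The sister genes E2F2 (0.32 ± 0.15, edgeR adjusted p 0.125) and CCNE2 were not called. CCNE2 was at 4.74 and 5.27 CPM with 7A and 5.34 and 5.26 CPM with DMSO (-0.08 ± 0.20), and 37.05% of its exon length is shared with INTS8 on the opposite strand. Per kb of exon E2F1 was 2.09 and 2.52 times RB1, which encodes the protein that restrains it, with 7A, against 0.674 and 0.536 times with DMSO. DTL, the substrate receptor of the ligase that destroys CDT1 in S phase, had -0.31 ± 0.19 and was not called.

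The members called higher had more GC-rich transcripts. Of 22 members with a GC content over 50% in the longest transcript 17 were called higher (77.3%), against 6 of 10 between 45% and 50% and 5 of 20 under 45% (25%). Their median log2 fold changes were 0.92, 0.48 and 0.02 in the same order. Over all tested genes with those GC contents the shares called higher were 31.3%, 20.5% and 15.3%. Both members called lower, CDC7 (39.1% GC) and RFC1 (41.7%), fell in the lowest class, and so did MCM6 (43.1%). RFC3, at 39.1% GC, was an exception that rose by 1.31. Across the 52 members Spearman's rho between log2 fold change and GC content was 0.57, and across all tested genes it was 0.24. These are descriptions across genes of the same 4 libraries.

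Transcript length was looked at in the same way. The median log2 fold change was 0.57 for 6 members with under 2500 bp of merged exon, 0.54 for 28 members up to 5000 bp and 0.46 for 18 longer ones. Over all tested genes it was 0.35, 0.11 and -0.25 in the same classes. After a per-library correction for GC content and length 29 members were called higher and 4 lower, against 24.8% higher and 24.5% lower over all tested genes. All 28 members called higher before the correction were called higher after it, with MCM10 added (0.52, edgeR adjusted p 0.0299). The additional members called lower were FEN1 (-0.35, edgeR adjusted p 0.0465) and ASF1B (-0.50, edgeR adjusted p 0.0405). E2F1 then had 1.36 and MCM5 1.67, and the median of the members was 0.53. The correction did not remove the relation to GC content within the members. Spearman's rho with GC content was then 0.42 across the members and 0.0015 across all tested genes. Corrected medians of the members were 0.71 over 50% GC, 0.45 between 45% and 50%, and 0.14 under 45%. The change was also related to expression level. Before the correction Spearman's rho between log2 fold change and mean CPM was 0.48 across the members and 0.39 across all tested genes. After it the values were 0.43 and 0.44. The median of mean CPM was 35.73 over the members and 24.96 over all tested genes. The part of expression level in the share of members called higher was not tested. With a correction for length alone 22 members were called higher and 2 lower, beside 3247 and 3188 of the 14026 tested genes. The members' median was then 0.37 and that of all tested genes -0.03. The calls lost were those of PCNA (0.32, edgeR adjusted p 0.138), RFC5, DSCC1, PRIM1, RPA2 and CHAF1B.

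**Figure D4:**
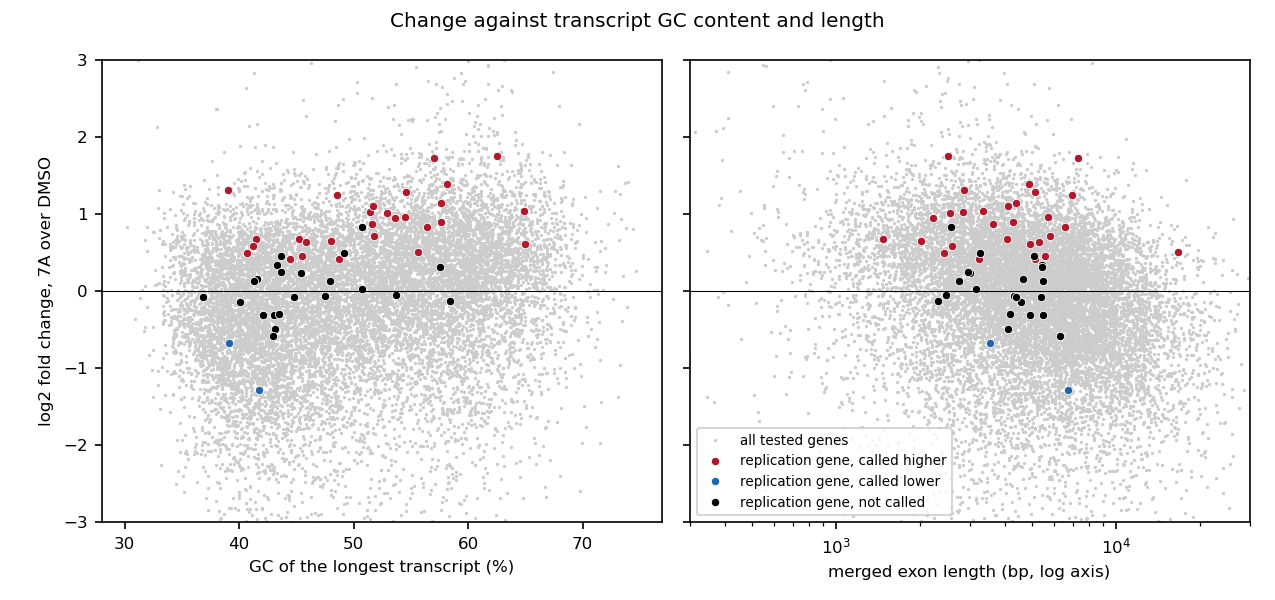
Log2 fold change of 7A over DMSO against GC content of the longest transcript (left, in percent) and against merged exon length (right, in bp on a log axis), for all tested genes in light grey and the 52 replication genes by call (red higher, blue lower, black not called). The red points gather at higher GC, where 17 of 22 members over 50% were called higher, and are spread over the length axis; 175 tested genes beyond 3 in size and 28 outside the length axis are not drawn.

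A wider list of 69 further replication and S phase genes is given for comparison. It was chosen by function, with earlier results of these data known. Of these 24 were called higher (34.8%) and 8 lower (11.6%), with a median log2 fold change of 0.23, beside the 23.9% and 24.6% of all tested genes. Scaled by library totals alone the list had 15 higher and 14 lower, with a median of -0.04. Without DMSO replicate 2 it was 14 higher and 2 lower, and without 7A replicate 2 it was 2 lower. After the GC and length correction 34 were higher and 8 lower.

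Among these further genes POLD2, the second subunit of polymerase delta, rose most, by 1.35 ± 0.14, and RNASEH2A, the catalytic subunit that removes RNA from DNA, by 1.31 ± 0.14. TYMS, which makes thymidylate, rose by 1.30 ± 0.13, to 173 and 195 CPM with 7A, against 74.4 and 75.3 CPM with DMSO. POLE4, a small subunit of polymerase epsilon, rose by 1.22 ± 0.21, E2F4, an E2F that acts with the RB relatives, by 1.18 ± 0.17, and DBF4B, the alternative activator of CDC7, by 1.08 ± 0.16. Among those called lower the largest falls were in MCM9 (-0.95 ± 0.18), a helicase gene of repair, and TOPBP1 (-0.87 ± 0.20), which helps CDC45 to load. RAD17, a checkpoint clamp loader, fell by 0.79, as did the RB relative RBL1, and the histone chaperone ASF1A fell by 0.68 and the E2F partner TFDP2 by 0.65. TOP2A, a topoisomerase that untangles replicated DNA, named after its values were seen, had the lowest value of the list at -1.23 and was not called (edgeR adjusted p 0.0568), with both 7A libraries below both DMSO libraries. After the GC and length correction it was called lower (-0.97, edgeR adjusted p 0.0435). After that correction MCM9 (-0.42, edgeR adjusted p 0.0696) and TFDP2 (-0.21, edgeR adjusted p 0.211) were no longer called. A list of 30 mitosis genes, for comparison, had 10 higher and 9 lower with a median of 0.15. Its log2 fold changes ran from -3.09 to 1.30. Whether these lists differ from the members was not tested.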

How the data were processed

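Libraries were made from total RNA of HCT116 cells with a mRNA kit for Illumina, per the labels' protocols. The authors deposited 1 table of raw counts by Ensembl gene, judged by its name and by its whole numbers, whose totals differ between libraries. Of genes with 1 to 20 counts, 63.9% to 64.9% in each library had an even count. The cause, and whether each count stands for a separate fragment, was not tested. The submitters' processing notes name hg 38, mm 10 and GRCm 38 together. The sources used here do not give the aligner, counter, annotation or strand setting. Symbols, places, exon lengths and GC content are from GENCODE 29 on GRCh38.

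The test was edgeR 4.0.16 (R 4.3.3), with filterByExpr (minimum count 10), TMM scaling and a robust quasi-likelihood fit of 7A against DMSO over 14026 genes at an adjusted p of 0.05. The SE is the log2 fold change divided by the square root of F. Per-kb levels use merged exons, which can be longer than the transcript expressed. The GC and length correction fitted splines (5 degrees of freedom, log2 CPM with a prior count of 2) in each library and entered them as offsets. The test was checked on simulated counts. Alternatives were DESeq2 1.42.0, limma 3.58.1 (voom), other scalings, filters, a block, thinning and each library left out. The correction combined with a left-out library was added after seeing the data. The members and lists were chosen with earlier results of these data known. All 52 members are named. Every library value is given, per role, for up to 3 called members with the largest change in each direction. The same holds for an uncalled member with the role's largest SE. Other members that fell without being called are mostly given without library values. Of the wider list, up to 6 called genes a direction are named. Ratios between genes and the members named for a lost or gained call were chosen after their values were seen. Counts of PCNA, RRM2, RPA2, UNG, DBF4, RFC3, RFC5 and FEN1 are less certain, since pseudogenes are annotated under their names.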

Additional observations from a re-analysis of the deposited data

How the results depend on the processing

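The members' median kept its sign under all alternatives, between 0.23 and 0.54, and no called member changed sign. RLE scaling, DESeq2 and limma-voom left the calls of all 52 members as they were. Library totals alone gave 18 members higher and 4 lower, 1951 of all tested genes higher and 4934 lower (28.3% of calls higher, against 49.3%), and 15 further replication genes higher and 14 lower. With upper-quartile scaling it was 24 members higher and 2 lower, and 2781 tested genes higher and 4059 lower. A test against a fold of 1.5 left 14 members higher and 0 lower, 1129 tested genes higher and 1460 lower, and 8 further genes higher and 0 lower. In that edgeR test 1 member and 2 further genes were lower at an unadjusted p under 0.05; DESeq2 without the fold threshold called 2 and 11. The GC and length correction gave 4 members lower. Thinning to 29769568 counts gave 1 member lower, CDC7 being lost.

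Same-numbered libraries did not deviate together (correlation -0.05 over 14026 genes), so the numbers were not taken as pairs. With a replicate block 24 members were higher and 2 lower, with 3029 and 3187 tested genes. The block with the GC and length correction gave 26 members higher and 1 lower, and 3 further genes lower.

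With each library left out, 19 to 23 members were higher and 0 to 2 lower, 1925 to 3054 tested genes were higher and 1939 to 2619 lower, and 14 to 22 further genes were higher and 2 to 8 lower. With the GC and length correction as well, 22 to 26 members were higher and 0 to 3 lower, 2263 to 2978 tested genes higher and 2045 to 2435 lower (2261 without 7A replicate 2), and 22 to 28 further genes higher and 1 to 6 lower (5 without 7A replicate 1). Without 7A replicate 2 no member was called lower by edgeR, with 1 at an unadjusted p under 0.05, and 2 after the correction. These fits have 1 library in a group, which is assumed to vary like the other group. The causes of these shifts were not tested. With 2 libraries a group, calls near the threshold are the least settled.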
